A study of Mus musculus with 23 samples.

Results

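Collagen chain genes encode the polypeptides that wind into the triple helices of collagen molecules. They were taken here as every gene whose symbol is Col, a number, a, and a number, such as Col1a1 or Col18a1. The rule found 44 genes among the 36793 of the deposited tables, and all 44 had at least 1 read in some library. The 23 RNA sequencing libraries fall into 8 groups from 3 transplantable mouse head and neck tumour models. SCCVII is a squamous carcinoma line of C3H/HeJ mice, and HPV-positive MEER and HPV-negative MEER are lines of C57/Bl6 mice that differ in papillomavirus status by their labels. SCCVII is also labelled as free of papillomavirus, and it differs from both MEER models in mouse strain, so strain and model cannot be told apart. Macrophages were sorted from tumours grown under the skin by flow cytometry, gated on strong F4/80 among leukocytes (CD45+) that had CD11b but not Gr1, with 3 libraries in each model, and each library pools 3 to 4 mice. Colonies are cells grown for 9 days in haematopoietic stem cell medium from such sorted macrophages, with 2 libraries from SCCVII and 3 from HPV-negative MEER tumours. Each cultured line gave 3 libraries, which are aliquots of cultured cells, so their spread may be technical. The total count per library was 26848759 to 47609481, and where the labels name no separate culture or animal, the p-values reflect the spread among libraries, which may be technical.

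Several libraries stood apart from their labels or their group, and main counts are also given without the libraries in doubt. The 9 macrophage libraries carried all 9 macrophage markers, with summed levels of 11180.2 to 26775 TPM (a level corrected for gene length and library depth), against 17.2 to 47.1 TPM in the 9 line libraries. In the colonies that sum was 15901 TPM in SCCVII colony 1, 1490.0 TPM in SCCVII colony 2, and 18136, 1581 and 89.8 TPM in HPV-negative colonies 1, 2 and 3. Csf1r, the receptor on which macrophages depend, was at 30.5 and 3.4 TPM in the SCCVII colonies and at 288, 2.43 and 0.31 TPM in the HPV-negative colonies, against 962 to 1371 TPM in the sorted macrophages. Most colony libraries were thus short of the defining markers of the macrophages that they are labelled to come from. The HPV-negative colonies carried Krt7, a simple-epithelium keratin, at 181 to 312 TPM. Krt7 was also found in the HPV-negative line at 60.1 to 122 TPM and was near 0 in the SCCVII line and colonies. Other epithelial markers differed between colonies and their line. Krt19 was at 37.9 TPM in SCCVII colony 1 and 0.25 TPM in colony 2, against 0.13 TPM or less in the SCCVII line. In HPV-negative colonies Trp63 was at 10.1 to 28.8 TPM, against 0.42 to 3.21 TPM in the line, and Krt14 at 6.31 to 13.8 TPM, against 2.47 to 4.58 TPM. The SCCVII line had Krt8 and Krt18 but Epcam at 0 TPM, and Krt5, a keratin of squamous epithelium, was at 0.06 TPM or less in all 9 line libraries. Library 4 of the HPV-negative macrophages had higher levels of genes of its line than libraries 1 and 2, with Krt7 at 22.6 TPM there against 2.43 and 3.6 TPM. The 3 HPV-negative colony libraries came in a table of their own, so handling and group cannot be told apart for them. Of 3387 genes above 20 TPM in all 20 other libraries, 0 were under 1 TPM in all 3 of these.

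Fibril-forming collagens (types I, II, III, V, XI, XXIV and XXVII) build the ropes of connective tissue, where type I is normally made from Col1a1 and Col1a2 chains together, and type V and XI chains seed the fibril. Type IV makes the sheet of basement membranes, type VI the beaded filaments beside cells, type VII the anchoring fibrils of the skin, and type VIII a short-chain lattice. FACIT collagens such as XII, XIV and XVI sit on the surface of fibrils, multiplexins (XV and XVIII) lie at basement membranes, and a few collagens such as XVII span the cell membrane. In carcinomas most fibrillar collagen is usually credited to fibroblasts, while tumour cells and macrophages contribute smaller and more selective sets.

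Collagen RNA was abundant in colonies and lines and scarce in macrophages. The 44 chains summed to 895 and 1452 TPM in SCCVII colonies and to between 1253 and 1912 TPM in HPV-negative colonies. The sum was 215 to 229 TPM in SCCVII macrophages, 44.5 to 62.3 TPM in HPV-positive macrophages and 76.8 to 216 TPM in HPV-negative macrophages. It was 1595 to 1752 TPM in the SCCVII line, 452 to 764 TPM in the HPV-positive line and 518 to 592 TPM in the HPV-negative line. Of the 44 chains, 30 reached a group mean of 1 TPM in at least 1 group. The other 14, among them Col2a1 of cartilage, Col4a6 and Col9a1, stayed under 1 TPM in every group, with a highest group mean of 0.78 TPM. Macrophages of every model were led by Col14a1, a FACIT chain, while Col1a2 led the SCCVII line, Col18a1 the HPV-positive line and Col8a1 the HPV-negative line.

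**Figure D1:**
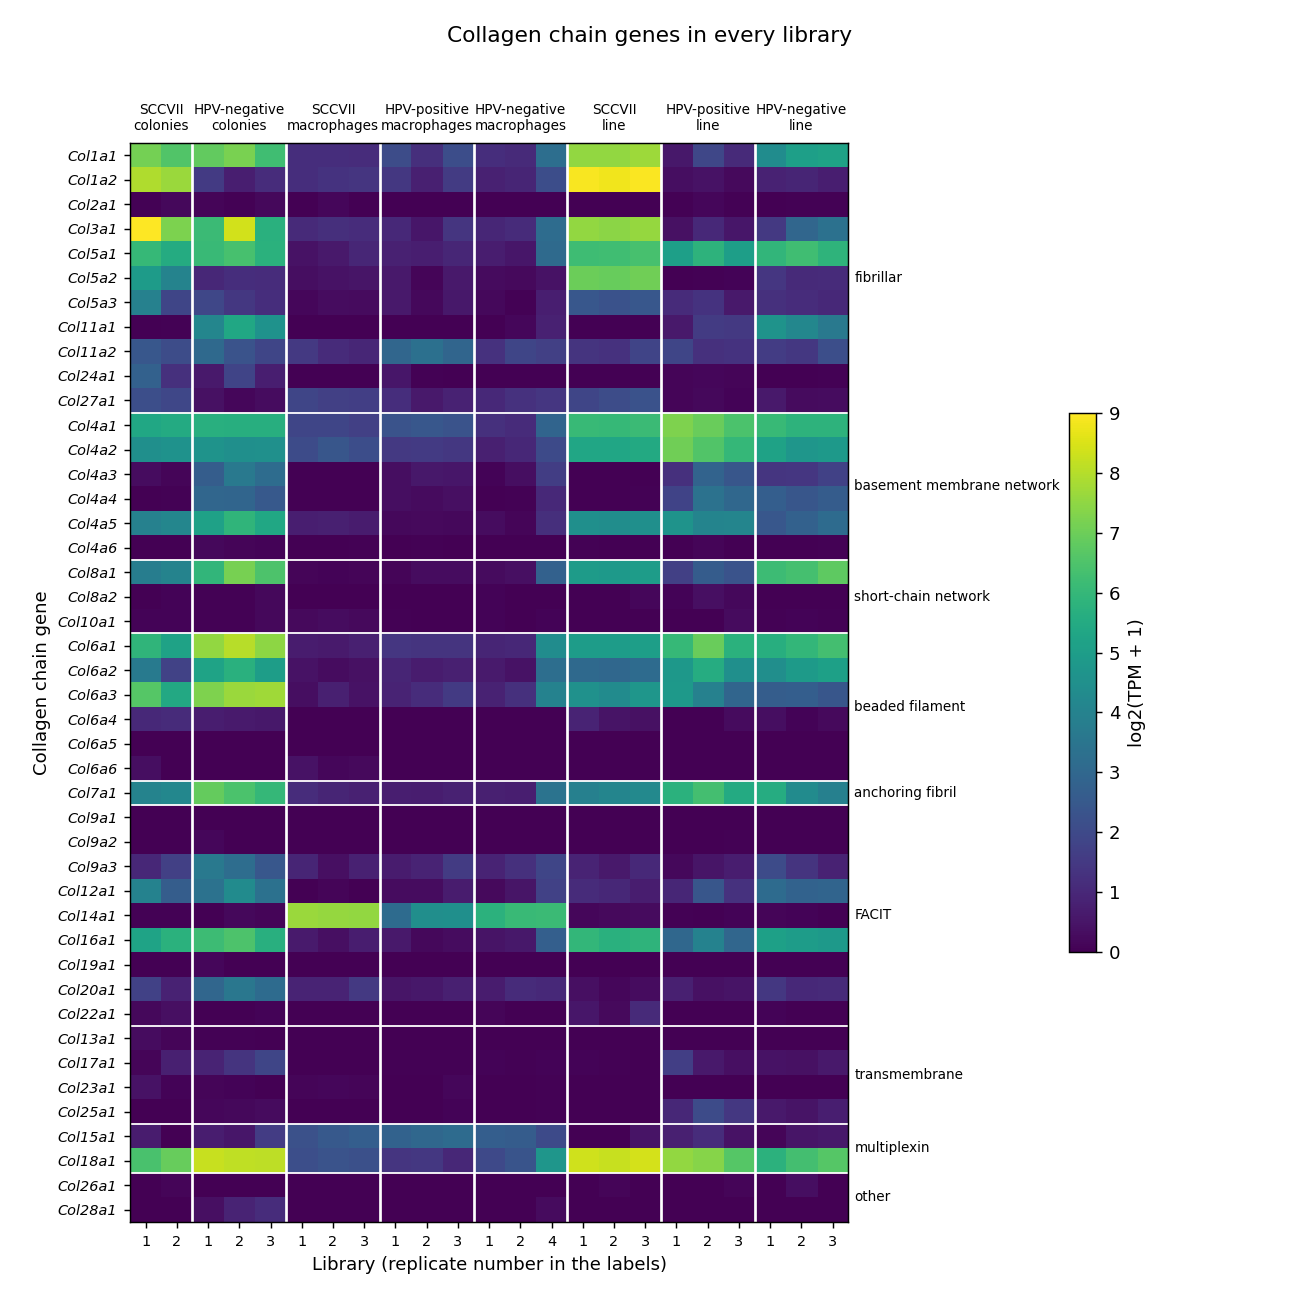
Level of each of the 44 collagen chain genes, as log2(TPM + 1), in each of the 23 libraries, with chains grouped by class (white lines) and libraries by group. Col14a1 is bright in the 9 macrophage libraries and dark elsewhere, Col1a2 and Col5a2 are bright in the SCCVII line and colonies, and HPV-negative macrophage library 4 is brighter than libraries 1 and 2 for most line-expressed chains.

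The 3 tumour lines made different fibril chains. Col1a1 and Col1a2, the chains of type I collagen, were both high in SCCVII cells, Col1a1 alone was appreciable in HPV-negative MEER cells, and HPV-positive MEER cells had little of either. Col1a1 was at 186, 186 and 205 TPM in the SCCVII line, at 0.5, 2.73 and 1.1 TPM in the HPV-positive line and at 20, 32.7 and 35.1 TPM in the HPV-negative line. Col1a2 was at 477, 449 and 487 TPM in the SCCVII line, at 0.26, 0.36 and 0.18 TPM in the HPV-positive line and at 0.81, 0.89 and 0.67 TPM in the HPV-negative line. The 3 lines did not overlap for either chain. Fold changes below are on the log2 scale, fitted by edgeR's quasi-likelihood test to counts of all genes, and a chain is called where its Benjamini-Hochberg adjusted p over all genes tested is under 0.05. Col1a2 was higher in the SCCVII line than in the HPV-negative line by 9.34 (SE 0.19, adjusted p = 3.1e-10), and Col1a1 by 2.75 (SE 0.42, adjusted p = 0.00027). Type I collagen of the usual composition needs more Col1a1 than Col1a2 chains, and the ratio of Col1a1 to Col1a2 TPM was 0.391 to 0.421 in the SCCVII line, 1.92 to 7.58 in the HPV-positive line and 24.7 to 52.4 in the HPV-negative line. Col1a1 lies on chromosome 11 at 94936224 to 94953042 and Col1a2 on chromosome 6 at 4504814 to 4541544 (GRCm38).

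Col3a1, the chain of type III collagen in elastic connective tissue, and Col5a2, a chain of the fibril-seeding type V, went the way of Col1a2. Col3a1 was at 183, 174 and 189 TPM in the SCCVII line, at 0.31, 1.06 and 0.46 TPM in the HPV-positive line and at 1.82, 6.78 and 9.35 TPM in the HPV-negative line. Col5a2 was at 124, 119 and 130.2 TPM in the SCCVII line, at 0.01, 0.03 and 0.05 TPM in the HPV-positive line and at 1.66, 1.08 and 1.16 TPM in the HPV-negative line. Neither chain overlapped between SCCVII and the MEER lines. Col5a1, the partner of Col5a2, was far more even, at 72.6 to 82.8 TPM in the SCCVII line, 31.9 to 55.2 TPM in the HPV-positive line and 56.5 to 74.2 TPM in the HPV-negative line. The TPM ratio of Col5a1 to Col5a2 was therefore 0.585 to 0.636 in SCCVII cells and 36.1 to 68.7 in HPV-negative cells, while in HPV-positive cells Col5a2 was near 0. Col3a1 (45311538 to 45349706, plus strand) and Col5a2 (45374321 to 45503282, minus strand) lie close together on chromosome 1 (GRCm38).

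The windows around the starts of Col1a2 and Col3a1 are shown because these chains differed so widely between the lines and were high in the same line. Each holds 250 bases before and 50 bases after the annotated start, from RefSeq on GRCm38.p6, written 5′ to 3′ on the strand of the gene, and capitals mark matches on either strand to the TATA box (TATAAA), to the CCAAT box of the same letters, or to the GC box (GGGCGG).
Col1a2 (chr6:4505368-4505667, plus strand): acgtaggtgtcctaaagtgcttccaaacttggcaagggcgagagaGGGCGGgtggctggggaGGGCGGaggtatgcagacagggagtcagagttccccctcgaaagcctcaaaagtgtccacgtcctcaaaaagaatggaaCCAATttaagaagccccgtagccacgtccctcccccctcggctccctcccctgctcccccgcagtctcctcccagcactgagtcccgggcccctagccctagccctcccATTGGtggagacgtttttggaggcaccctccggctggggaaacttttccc
Col3a1 (chr1:45311288-45311587, plus strand): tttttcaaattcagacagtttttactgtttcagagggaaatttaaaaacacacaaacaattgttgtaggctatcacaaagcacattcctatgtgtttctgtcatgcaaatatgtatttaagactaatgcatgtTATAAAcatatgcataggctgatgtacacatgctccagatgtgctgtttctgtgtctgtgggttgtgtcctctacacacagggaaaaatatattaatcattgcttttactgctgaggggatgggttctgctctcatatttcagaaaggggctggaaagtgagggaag
The Col1a2 window holds 2 CCAAT and 2 GGGCGG matches and no TATAAA, and the Col3a1 window holds 1 TATAAA and neither of the others. The Col1a2 window begins at 4505368, inside the gene coordinates given above, which begin at 4504814, so the annotations differ in its start. The reference table had windows for 35 of the 44 chains, 38 windows in all. GGGCGG, the GC box, was in 23 of these 38 windows (60.5%), against 35.7% of 32851 windows of all genes. CCAAT was in 13 (34.2%, against 37.4% of all) and TATAAA in 5 (13.2%, against 13.6% of all). These matches are a description of the letters and were not tested.

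**Figure D2:**
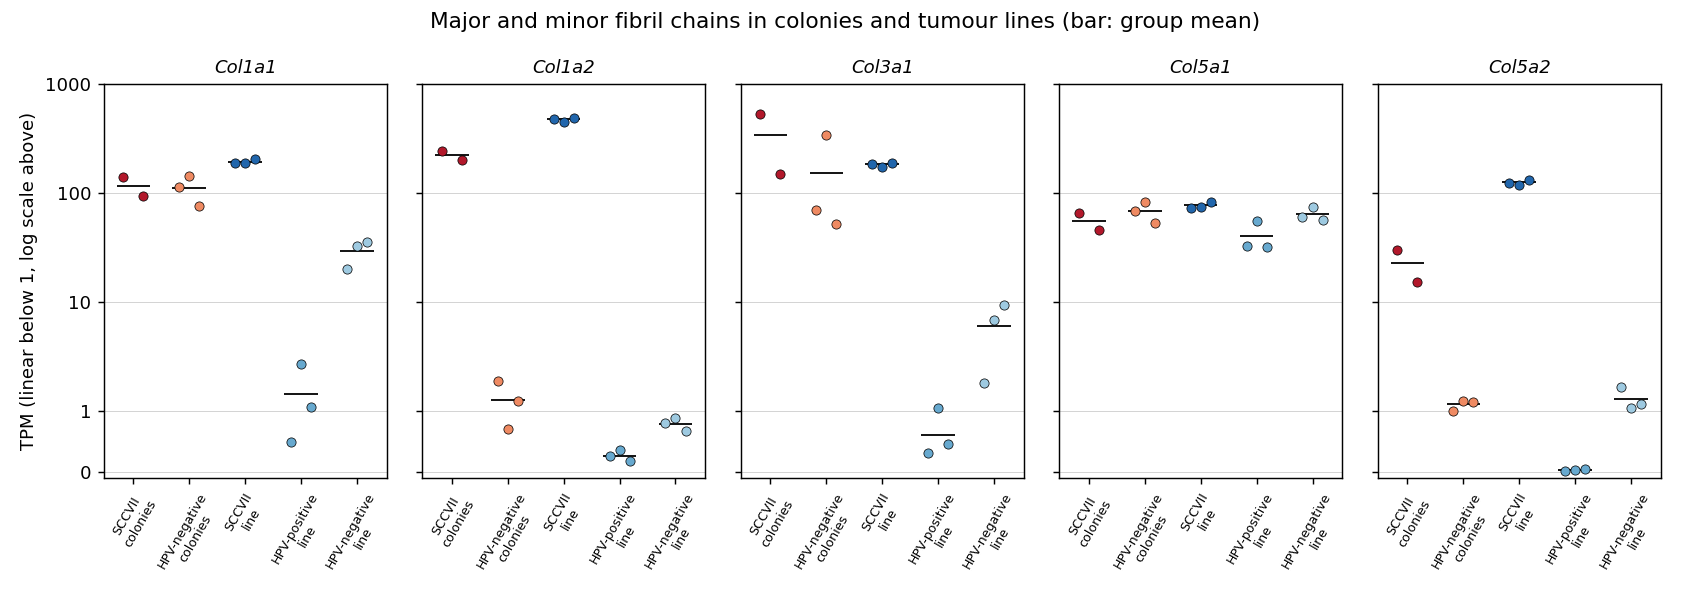
TPM of 5 fibril chains in each colony and line library (points) with group means (bars), on an axis that is linear below 1 and logarithmic above. Col1a2 and Col5a2 are high in SCCVII colonies and line and at 1.91 TPM or less in the HPV-negative and HPV-positive groups, while Col5a1 stays between 31.9 and 83.2 TPM in every group shown.

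Col11a1, by contrast, was highest in HPV-negative MEER cells. Col11a1, a type XI chain of cartilage fibrils, had 0 counts in all 3 SCCVII line libraries, and was at 0.54, 1.97 and 1.79 TPM in the HPV-positive line and at 23.5, 16.8 and 11.6 TPM in the HPV-negative line. With a floor of 3 counts over the SCCVII group, it was at least 1929.6-fold lower in the SCCVII than in the HPV-negative line and at least 135-fold lower than in the HPV-positive line. Between the MEER lines it was lower in HPV-positive cells by 3.85 (log2 -3.85, SE 0.67, adjusted p = 0.0019). Its partner Col11a2 was at 1.43 to 2.62 TPM in the SCCVII line, 1.36 to 2.7 TPM in the HPV-positive line and 1.73 to 3.51 TPM in the HPV-negative line. Col27a1, a fibrillar chain of cartilage, was higher in SCCVII cells (2.71 to 3.78 TPM) than in HPV-negative cells (0.21 to 0.52 TPM), by log2 3.31 (SE 0.36, adjusted p = 2.7e-05).

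The basement membrane chains were shared by all lines with graded levels, except for a pair that SCCVII lacked. Col4a1 and Col4a2, the common type IV chains, start 21 bases apart on opposite strands of chromosome 8. Col4a1 was at 66.4, 64.7 and 68.5 TPM in the SCCVII line, at 151, 123 and 86.7 TPM in the HPV-positive line and at 65.7, 55.9 and 55.3 TPM in the HPV-negative line. Col4a2 was at 39, 38.9 and 43.2 TPM in the SCCVII line, at 130.4, 92.9 and 63.2 TPM in the HPV-positive line and at 35.8, 25.2 and 27.7 TPM in the HPV-negative line. The HPV-positive libraries were the highest for both chains and did not overlap the others. HPV-positive cells exceeded HPV-negative cells by log2 0.88 for Col4a1 (SE 0.15, adjusted p = 0.001) and by 1.53 for Col4a2 (SE 0.21, adjusted p = 0.00021). The annotated starts of both genes overlap, so without a stated strand setting reads at their starts cannot be assigned with certainty. Their windows overlap by 78 bases on opposite strands and are shown because the genes were measured together.
Col4a1 (chr8:11312777-11313076, minus strand): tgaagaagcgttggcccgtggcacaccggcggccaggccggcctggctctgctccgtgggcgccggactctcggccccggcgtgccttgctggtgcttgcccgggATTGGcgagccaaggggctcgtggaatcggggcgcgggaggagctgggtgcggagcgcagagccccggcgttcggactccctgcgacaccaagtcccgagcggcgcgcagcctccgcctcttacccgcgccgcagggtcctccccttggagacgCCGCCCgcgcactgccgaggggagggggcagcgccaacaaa
Col4a2 (chr8:11312555-11312854, plus strand): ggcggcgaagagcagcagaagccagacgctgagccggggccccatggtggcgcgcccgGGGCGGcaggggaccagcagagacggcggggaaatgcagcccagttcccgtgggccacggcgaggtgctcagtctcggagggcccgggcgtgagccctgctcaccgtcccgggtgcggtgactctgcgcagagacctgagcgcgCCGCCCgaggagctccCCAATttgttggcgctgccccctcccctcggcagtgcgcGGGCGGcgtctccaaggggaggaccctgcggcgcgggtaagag
Capitals have the same meaning as above. The Col4a1 window holds 1 CCAAT and 1 GGGCGG match, and the Col4a2 window 1 CCAAT and 3 GGGCGG matches.

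Col4a3 and Col4a4, the chains of the kidney and lung type IV network, also share a divergent start, 72 bases apart on chromosome 1. Col4a4 was at 0.01, 0.02 and 0.03 TPM in the SCCVII line, at 2.47, 9.46 and 6.98 TPM in the HPV-positive line and at 5.51, 4.33 and 5.09 TPM in the HPV-negative line. Col4a3 was at 0.02 TPM or less in the SCCVII line, at 1.35 to 6.31 TPM in the HPV-positive line and at 1.64 to 2.32 TPM in the HPV-negative line. Both were lower in SCCVII than in HPV-negative cells, by log2 -7.96 for Col4a4 (SE 0.64, adjusted p = 3.1e-06) and -7.16 for Col4a3 (SE 0.76, adjusted p = 2.1e-05). The third type IV pair behaved otherwise, since Col4a5 on the X chromosome was at 20.3 to 21.2 TPM in the SCCVII line, 15.8 to 23.9 TPM in the HPV-positive line and 4.44 to 7.77 TPM in the HPV-negative line. Its neighbour Col4a6, which starts 1309 bases away on the other strand, was at 0.08 TPM or less in all 9 line libraries.

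Among the other classes, Col8a1, a short-chain collagen of vessel walls and the eye, was lowest in HPV-positive cells at 2.24, 5.17 and 3.96 TPM, against 70.5, 80.3 and 109 TPM in HPV-negative cells (log2 -4.66, SE 0.30, adjusted p = 1.5e-06). In the SCCVII line it was at 28.1 to 30.4 TPM. Col18a1, whose C-terminal end is the source of endostatin, was at 323, 304 and 339 TPM in the SCCVII line, at 185, 162 and 96.8 TPM in the HPV-positive line and at 53.8, 78.5 and 98 TPM in the HPV-negative line. SCCVII exceeded HPV-negative cells for Col18a1 by log2 2.17 (SE 0.26, adjusted p = 5.7e-05), and HPV-positive cells did so by 0.85 (SE 0.25, adjusted p = 0.019) with overlapping TPM. Col7a1, the anchoring fibril chain, was at 14.3 to 18 TPM in the SCCVII line, 44.3 to 77.7 TPM in the HPV-positive line and 14.2 to 46.4 TPM in the HPV-negative line. HPV-positive cells were above HPV-negative cells for Col7a1 by log2 1.03 (SE 0.36, adjusted p = 0.036), with overlapping TPM, and SCCVII was below HPV-positive cells by log2 -1.66 (SE 0.36, adjusted p = 0.0023).

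The type VI chains split within the family. Col6a1 was at 30.3 to 32.3 TPM in the SCCVII line, 52.1 to 121 TPM in the HPV-positive line and 49 to 77.7 TPM in the HPV-negative line. Col6a2, which lies beside Col6a1 on chromosome 10, followed it at 7.08 to 7.75 TPM in the SCCVII line, 21.6 to 46.7 TPM in the HPV-positive line and 20.6 to 33.8 TPM in the HPV-negative line. Col6a3, the third chain of the type VI molecule, ran the other way between SCCVII and HPV-negative cells. It was at 19.4 to 25.5 TPM in the SCCVII line, 6.61 to 28.1 TPM in the HPV-positive line and 4.36 to 5.4 TPM in the HPV-negative line. It was also called higher in HPV-positive than in HPV-negative cells, without overlap, while the HPV-positive range spanned that of SCCVII. SCCVII was below HPV-negative cells for Col6a2 (log2 -1.86, SE 0.28, adjusted p = 0.00024) and above them for Col6a3 (log2 2.09, SE 0.38, adjusted p = 0.00082). Of the FACIT chains, Col12a1 was at 0.66 to 1.16 TPM in the SCCVII line, 0.97 to 4.33 TPM in the HPV-positive line and 6.1 to 7.91 TPM in the HPV-negative line. Col16a1 was at 50.9 to 61.7 TPM in the SCCVII line, 6.75 to 14.7 TPM in the HPV-positive line and 27.3 to 33.7 TPM in the HPV-negative line. Col17a1, the transmembrane collagen of hemidesmosomes, was low throughout, at 0.05 TPM or less in the SCCVII line, 0.29 to 2.22 TPM in the HPV-positive line and 0.31 to 0.55 TPM in the HPV-negative line.

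Counted over the family, 29 of the 44 chains passed the filter on low counts in the lines. In SCCVII against HPV-negative cells 12 were higher and 11 lower, where 58.8% of 14396 genes were called, 27.2% higher and 31.6% lower. In SCCVII against HPV-positive cells 13 were higher and 12 lower, against 64% of all genes, 30% higher and 34.1% lower. In HPV-positive against HPV-negative cells 8 were higher and 13 lower, against 47% of all genes, 23.2% higher and 23.9% lower, and the median log2 change of the 29 chains was -0.67, beside -0.01 over all genes tested. When all 23 libraries shared 1 fit, 2 were higher and 10 lower in that last comparison.

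**Figure D3:**
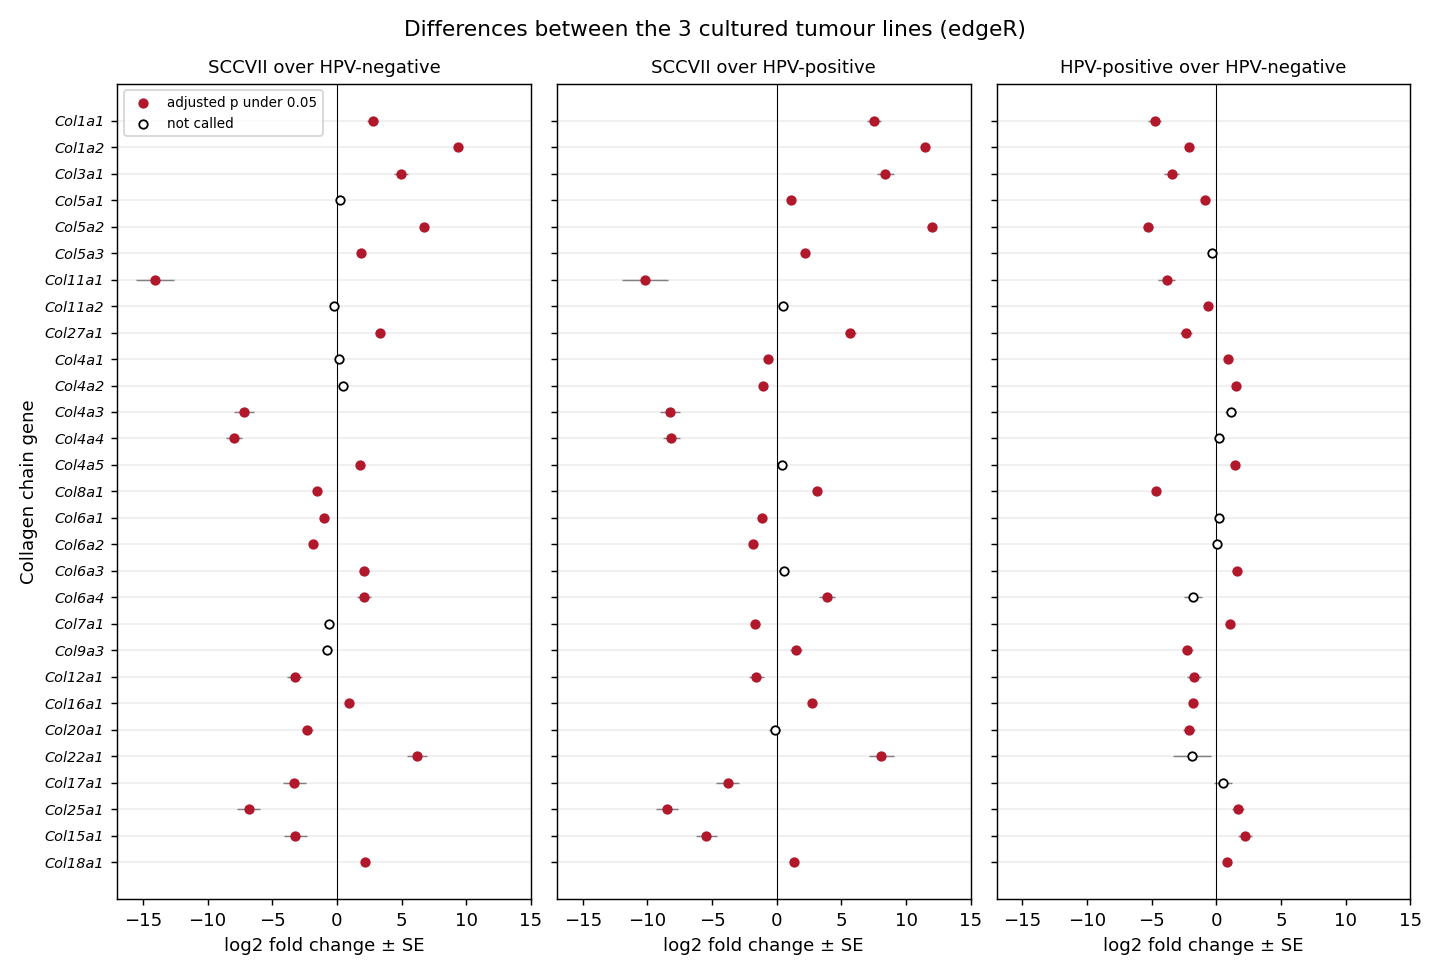
Fitted log2 fold change ± SE of the 29 chains tested in the lines, for SCCVII over HPV-negative, SCCVII over HPV-positive and HPV-positive over HPV-negative cells, with filled points for adjusted p under 0.05. Col1a2, Col3a1 and Col5a2 lie far to the right in both SCCVII panels and Col4a3, Col4a4 and Col11a1 far to the left. The plotted size for Col11a1 against SCCVII depends on the prior count, since SCCVII had no counts.

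Sorted macrophages carried RNA of a collagen that was near 0 in their tumour lines. Col14a1, a FACIT chain that binds collagen fibrils, was at 201, 192 and 184 TPM in SCCVII macrophages, at 7.8, 20.9 and 21.6 TPM in HPV-positive macrophages and at 54, 66.8 and 69.2 TPM in HPV-negative macrophages. In all 14 line and colony libraries it was at 0.2 TPM or less. The 3 macrophage groups did not overlap one another, and HPV-positive library 1 was the lowest of the 9. Col14a1 was higher in macrophages than in the line by log2 11.07 in SCCVII (SE 0.48, adjusted p = 4.6e-12), by 9.34 in HPV-positive MEER (SE 0.51, adjusted p = 6.2e-11) and by 10.26 in HPV-negative MEER (SE 0.49, adjusted p = 1.7e-11). Among macrophages, SCCVII exceeded HPV-negative by 1.60 (SE 0.30, adjusted p = 0.0026) and HPV-positive by 3.15 (SE 0.32, adjusted p = 2.2e-05), and HPV-positive was below HPV-negative by log2 -1.56 (SE 0.31, adjusted p = 0.0025). Without HPV-negative library 4 these differences from HPV-negative macrophages were 1.63 and -1.53. Col14a1 (ENSMUSG00000022371) lies on chromosome 15 at 55307750 to 55520803, with 3 annotated noncoding or pseudogene loci on the opposite strand.

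In bulk RNA, fewer cells with more RNA each and more cells with less cannot be told apart, and other cell types in the sort were looked at through their markers. Fibroblast markers summed to 8.11 to 10.7 TPM in SCCVII macrophages, 21 to 40.6 TPM in HPV-positive macrophages and 33.1 to 42.5 TPM in HPV-negative macrophages. Of the 12 markers, 2 reached 1 TPM on average in SCCVII, 4 in HPV-positive and 5 in HPV-negative macrophages. Thy1 was at 1.17 to 3.21 TPM in SCCVII, 4.96 to 22.3 TPM in HPV-positive and 7.78 to 13.2 TPM in HPV-negative macrophages. Pi16 was at 4.78 to 14.9 TPM over the 9 libraries, and Fap at 0.19 to 0.72 TPM in SCCVII, 0.85 to 2.16 TPM in HPV-positive and 1.8 to 10.4 TPM in HPV-negative macrophages. Pdgfra was at 0.35 TPM or less and Lum at 0.23 TPM or less in all 9 macrophage libraries, and Dcn was at 0.09 to 0.29 TPM in SCCVII, 0.34 to 0.42 TPM in HPV-positive and 0.86 to 6.4 TPM in HPV-negative macrophages. Summed over 6 pericyte and smooth muscle markers, the level had the order of Col14a1, at 92.5 to 106 TPM in SCCVII, 3.33 to 4.61 TPM in HPV-positive and 20.1 to 49.1 TPM in HPV-negative macrophages. That order was set by Cspg4, while Acta2 overlapped between SCCVII and HPV-negative macrophages and Notch3 was at 0.2 TPM or less. Cspg4 made up most of that sum in SCCVII and HPV-negative macrophages, at 85, 97.7 and 88 TPM in SCCVII, 0.04, 0.07 and 0.14 TPM in HPV-positive and 16.8, 13.6 and 34.4 TPM in HPV-negative macrophages. Acta2 made up most of it in HPV-positive macrophages, at 7.34 to 8.5 TPM in SCCVII, 2.85 to 4.33 TPM in HPV-positive and 5.17 to 14.3 TPM in HPV-negative macrophages. The defining markers Rgs5, Des and Myh11 were at 0.55 TPM or less in all 9 libraries, and 2 of the 6 markers reached 1 TPM on average in SCCVII. The part of such cells in the Col14a1 differences was not tested.

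Col15a1, Col11a2 and Col27a1 were also found in macrophages, at low levels. Of these, only Col15a1 was above every line library in every macrophage library. Col11a2 was at 1.36 to 3.51 TPM in the lines and 2.65 to 7.4 TPM in colonies, and Col27a1 at 2.71 to 3.78 TPM in the SCCVII line. Col15a1, a multiplexin of basement membrane zones, was at 3.71, 4.75 and 5.51 TPM in SCCVII macrophages, at 6.11, 6.98 and 7.95 TPM in HPV-positive macrophages and at 5.44, 5.08 and 3.08 TPM in HPV-negative macrophages, against 1.22 TPM or less in every line library. It was higher in macrophages than in the line by log2 8.49 in SCCVII (SE 0.50, adjusted p = 2.4e-10), 4.02 in HPV-positive MEER (SE 0.32, adjusted p = 6.7e-09) and 5.31 in HPV-negative MEER (SE 0.37, adjusted p = 1.8e-09). Col11a2 was at 6.75, 9.04 and 6.58 TPM in HPV-positive macrophages, against 1.43, 2.67 and 2.27 TPM in HPV-negative macrophages (log2 1.59, SE 0.16, adjusted p = 5.3e-05), and at 1.82, 1.17 and 0.96 TPM in SCCVII macrophages. Col27a1 was at 2.2 to 2.67 TPM in SCCVII macrophages, against 1.06 to 1.66 TPM in HPV-negative macrophages (log2 0.84, SE 0.26, adjusted p = 0.031) and 0.53 to 1.26 TPM in HPV-positive macrophages. Endothelial markers, which can accompany Col15a1, summed to 8.19 to 10.3 TPM in SCCVII, 65 to 81.1 TPM in HPV-positive and 15.6 to 26.2 TPM in HPV-negative macrophages, of which Pecam1 made up 54.1 to 64.3 TPM in the HPV-positive libraries, and their part in the result was not tested.

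**Figure D4:**
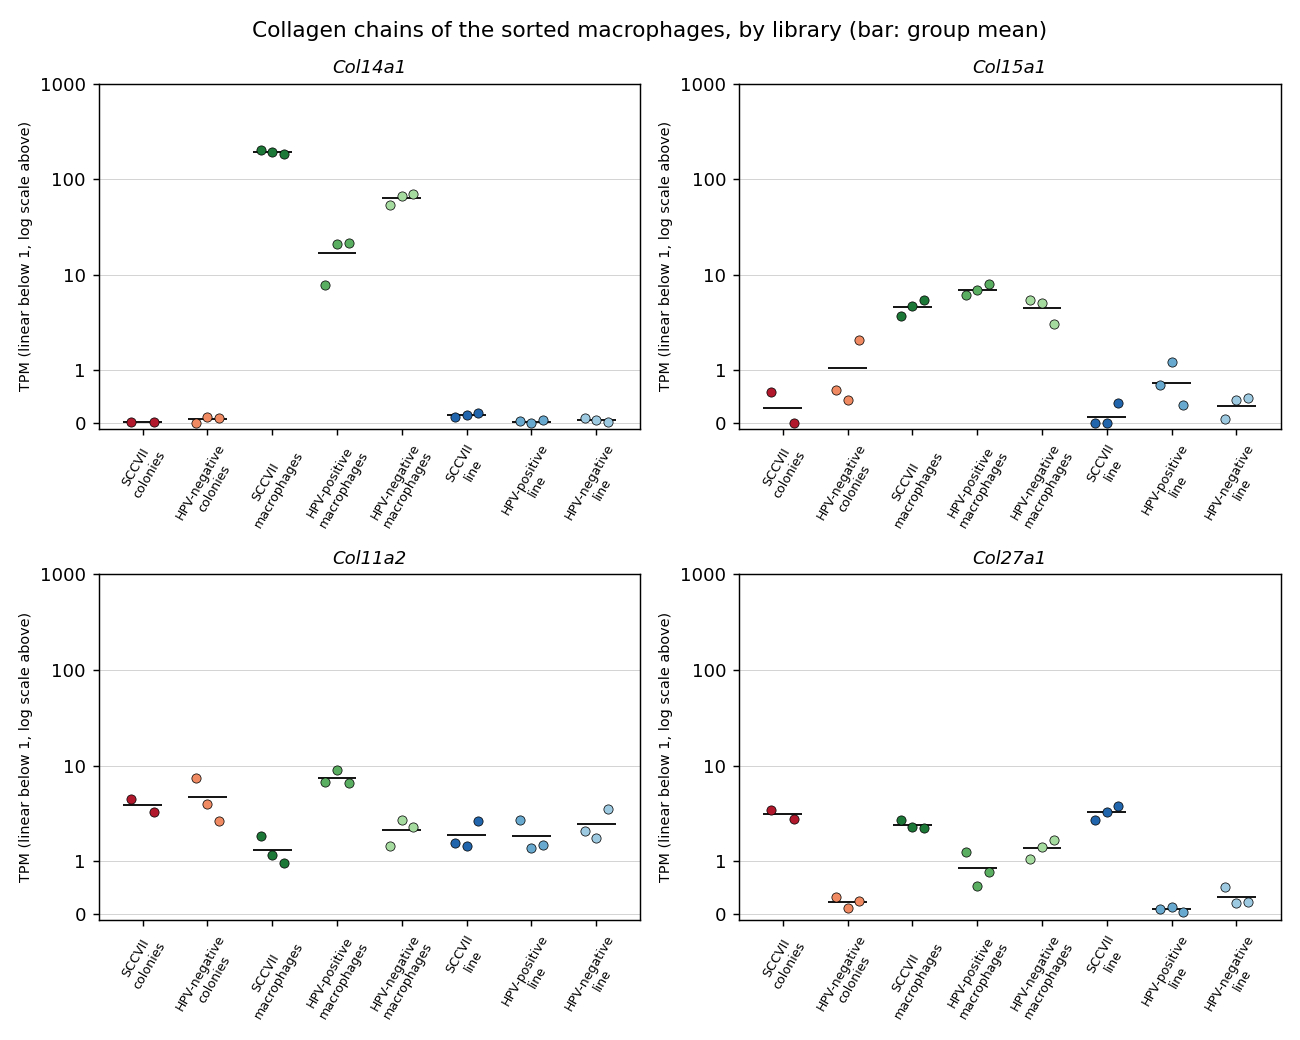
TPM of Col14a1, Col15a1, Col11a2 and Col27a1 in each library (points) with group means (bars), on an axis that is linear below 1 and logarithmic above. Col14a1 lies between 7.8 and 201 TPM in the 9 macrophage libraries and at 0.2 TPM or less in the others, and Col11a2 is highest on average in HPV-positive macrophages.

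Most of the remaining chains were lower in macrophages than in the lines, as a rule by large factors. Of 32 chains tested, 5 were higher and 21 lower in SCCVII macrophages than in the line, where 73% of 15835 genes were called, 37.4% higher and 35.5% lower. In HPV-positive MEER 9 were higher and 18 lower, against 78.8% of all genes, 39.6% higher and 39.1% lower. In HPV-negative MEER 4 were higher and 19 lower, against 76.1%, 38.7% higher and 37.4% lower, and without macrophage library 4 the counts were 3 and 22. The median log2 difference of the 32 chains was -4.36 in SCCVII, -3.12 in HPV-positive and -2.51 in HPV-negative MEER, beside medians of 0.00, 0.00 and 0.01 over all genes. Among the deepest was Col1a2 in SCCVII, at 1.26, 1.5 and 1.59 TPM in macrophages against 477, 449 and 487 TPM in the line (log2 -8.01, SE 0.46, adjusted p = 1.4e-10). In HPV-positive MEER the sign for Col1a2 was the other way, at 1.72, 0.73 and 1.93 TPM in macrophages against 0.26, 0.36 and 0.18 TPM in the line (log2 3.87, SE 0.51, adjusted p = 3.2e-06). Col1a1, Col3a1 and Col5a2 were also higher there on average, at 2.64, 1.04 and 0.393 TPM against 1.44, 0.61 and 0.03 TPM in the line. The libraries overlapped for Col1a1, at 1.33 to 3.33 against 0.5 to 2.73 TPM, and for Col3a1, at 0.45 to 1.6 against 0.31 to 1.06 TPM. They did not overlap for Col5a2, at 0.09 to 0.55 against 0.01 to 0.05 TPM. Col5a1, at 0.807 against 39.9 TPM, Col5a3 and Col11a1 were lower there.

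The line-expressed chains offered a common scale for these low macrophage levels, as each library's TPM in percent of its model's own line mean, over chains at 5 TPM or more in that line. The median over 15 such chains was 1.09, 1.21 and 1.26% in the SCCVII macrophage libraries. Over 11 chains it was 2.09, 1.87 and 2.25% in the HPV-positive libraries, and over 15 chains it was 2.36, 1.97 and 29% in HPV-negative libraries 1, 2 and 4. In library 4 single chains ran from 4.57 to 296%, and Col6a3 (296%) and Col3a1 (134%) were above the line mean. Keratins of the same line, up to 4 of the 10 epithelial markers, were at 3.11 to 5.89% in SCCVII and 0.922 to 2.41% in HPV-positive libraries. They were at 0.86 to 9.31% in HPV-negative libraries 1 and 2, and at 7.93 to 28.7% in library 4. Cdh1 and Epcam, also epithelial markers, stood apart from this scale. Cdh1 was above the line in every model, at 109 to 148 TPM in HPV-positive macrophages against 5.74 to 17.9 TPM in their line. It was at 19.4 to 32.2 against 0.3 to 0.41 TPM in SCCVII and at 16.8 to 23.1 against 0.57 to 1.09 TPM in HPV-negative MEER. Epcam was at 0.68 to 2.24 TPM in HPV-positive macrophages, against 3.36 to 11.4 TPM in their line. The part of tumour-cell RNA in the low collagen levels of the macrophages was not tested.

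**Figure D5:**
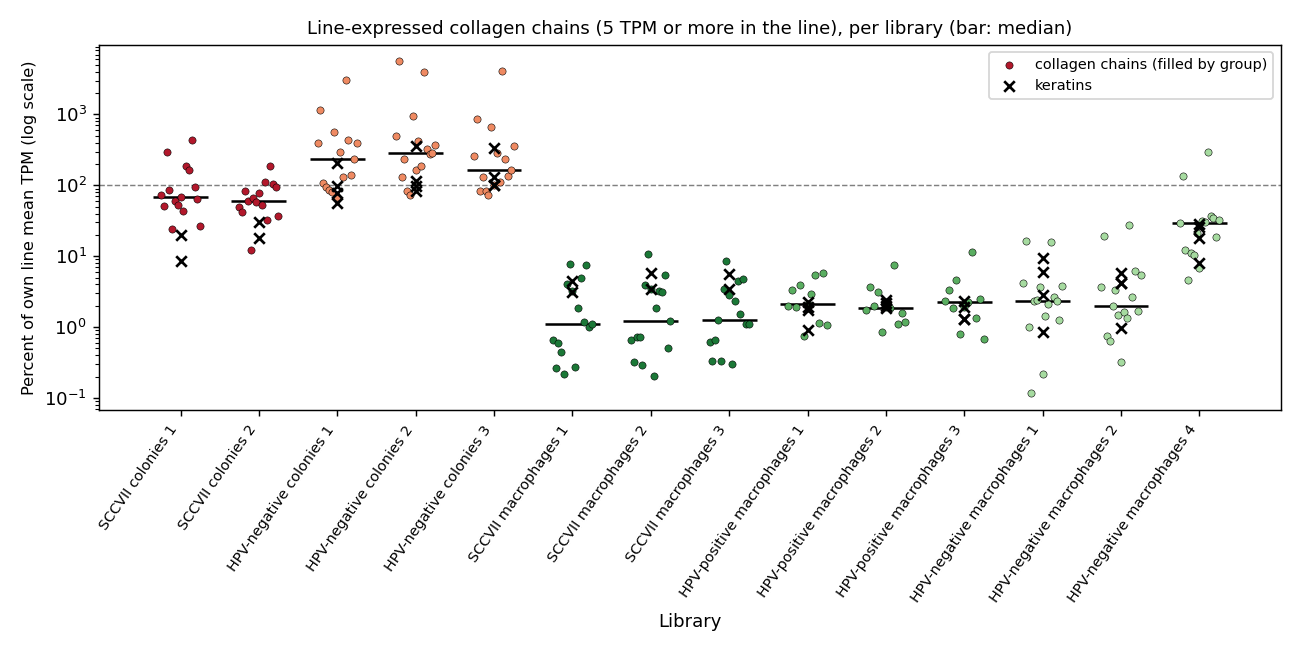
Level of each collagen chain with 5 TPM or more in the line (filled points) and of up to 4 keratins (crosses) in each colony and macrophage library, as a percentage of the mean TPM of the same model's line on a log axis, with the median over chains as a bar. Medians lie between 1.09 and 2.36% in 8 macrophage libraries and at 29% in HPV-negative library 4, and between 59.5 and 290.4% in the colonies.

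HPV-negative macrophage library 4 set most of the contrasts with HPV-negative macrophages, apart from Col14a1, Col15a1, Col11a2 and Col27a1. Col6a1 was at 0.91, 1.01 and 20 TPM in HPV-negative libraries 1, 2 and 4, Col18a1 at 2.95, 4.11 and 25.3 TPM, Col6a3 at 0.8, 1.4 and 14.8 TPM and Col8a1 at 0.19, 0.28 and 5.93 TPM. Col14a1, at 54, 66.8 and 69.2 TPM, and Col27a1, at 1.06, 1.41 and 1.66 TPM, did not show this step. In HPV-positive against HPV-negative macrophages 2 of 26 chains were higher and 4 lower, where 48.7% of 14085 genes were called, 22.8% higher and 25.9% lower. Without library 4 the counts became 15 higher and 2 lower of 27. In SCCVII against HPV-negative macrophages 3 were higher and 8 lower, against 39.2% of all genes, 18.7% higher and 20.5% lower. Without library 4 the counts became 8 and 7, with DESeq2 they were 4 and 2, and with only both groups in the fit 3 and 3 of 24. Col4a1 illustrates the change, at 2.66, 2.65 and 2.3 TPM in SCCVII macrophages, at 3.95, 4.4 and 3.96 TPM in HPV-positive macrophages and at 1.39, 1.16 and 6.46 TPM in HPV-negative macrophages 1, 2 and 4. Its log2 difference from HPV-negative macrophages was 0.81 in HPV-positive (SE 0.54, adjusted p = 0.25) and -0.27 in SCCVII (SE 0.55, adjusted p = 0.73), and without library 4 these were 2.07 (adjusted p = 7.4e-07) and 0.99 (adjusted p = 0.00011). For Col1a1 the HPV-positive difference was -0.26 (SE 0.67, adjusted p = 0.77), and 1.28 (adjusted p = 0.0049) without library 4.

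In SCCVII against HPV-positive macrophages, a contrast in which library 4 takes part only through the shared spread, 3 of 26 chains were higher and 6 lower, where 63.2% of all genes were called, 32.2% higher and 30.9% lower. With only both groups in the fit 6 of 25 were higher and 14 lower. Higher were Col14a1, Col27a1 and Col6a6, a long type VI chain with 45, 16 and 24 counts in SCCVII and none in HPV-positive macrophages, at least 22.6-fold higher with a floor of 3 counts over the group. Lower were Col11a2 by log2 -2.90 (SE 0.17, adjusted p = 7.1e-07), Col15a1, Col9a3, Col12a1, Col4a3 and Col4a4. Col4a4 had no counts in SCCVII macrophages and 24, 21 and 22 counts in HPV-positive macrophages, at least 28.4-fold lower. The Col4a3 and Col4a4 contrast has the direction seen between the lines. A balance within type IV differed too, since the ratio of Col4a1 to Col4a2 TPM was 0.612 to 0.836 in SCCVII macrophages and between 1.16 and 2.33 in every other library.

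Whether a model difference was itself different between macrophages and lines was tested as an interaction over 18 libraries. For HPV-positive against HPV-negative MEER, 12 of 32 chains passed, 7 with a more positive difference in macrophages and 5 with a more negative one, where 41% of 15835 genes were called, 19.4% and 21.6% in these directions. Col1a1 stood at 4.53 (SE 0.91, adjusted p = 0.00084), since HPV-positive cells were far below HPV-negative cells in the lines and the macrophages were at 3.26, 1.33 and 3.33 TPM in HPV-positive and 1.24, 1.08 and 8.49 TPM in HPV-negative tumours. Without library 4 the counts were 14 and 2. For SCCVII against HPV-negative MEER, 15 of 32 passed, 4 more positive and 11 more negative, against 43.6% of all genes, 19.8% and 23.9% in these directions. Without library 4 they were 8 and 8. Col1a2 was the most negative at -9.50 (SE 0.59, adjusted p = 3.8e-09), with macrophages at 1.26 to 1.59 TPM in SCCVII and 0.76 to 3.32 TPM in HPV-negative tumours. These comparisons share the HPV-negative groups.

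Colonies held far more collagen RNA than the sorted macrophages and lacked Col14a1. Col14a1 was at 0.03 and 0.03 TPM in SCCVII colonies, against 184 to 201 TPM in SCCVII macrophages (log2 -12.73, SE 0.56, adjusted p = 2.2e-06). In HPV-negative colonies it was at 0.01, 0.13 and 0.1 TPM, against 54 to 69.2 TPM in HPV-negative macrophages (log2 -11.00, SE 0.43, adjusted p = 5.5e-06). It was as low in HPV-negative colony 1 and SCCVII colony 1, the colony libraries with the highest macrophage marker sums. Lyz2, a lysozyme gene that neutrophils also express, was at 14857 TPM in SCCVII colony 1 and 16036 TPM in HPV-negative colony 1, most of those sums. C1qa was at 0.6 TPM in SCCVII colony 1 and 170.2 TPM in HPV-negative colony 1. Adgre1, a defining macrophage marker, was at 779 TPM in HPV-negative colony 1, above the 188 to 508 TPM of the sorted macrophages, and at 60.5 TPM in SCCVII colony 1. Itgam was at 376 TPM in HPV-negative colony 1, against 353 to 818 TPM in the sorted macrophages. Ptprc was at 57 TPM there, against 153 to 244 TPM in the sorted macrophages. Neutrophil markers summed to 1237 TPM in HPV-negative colony 1, against 6.84 to 50 TPM in the other 4 colony libraries. Of 34 chains tested, 22 were higher and 1 lower in SCCVII colonies than macrophages, where 51.9% of 16238 genes were called, 29.7% higher and 22.3% lower. In HPV-negative MEER 25 were higher and 2 lower, against 62.7% of all genes, 34% higher and 28.7% lower. Without SCCVII colony 1 the SCCVII counts were 22 and 3, without HPV-negative colony 1 the HPV-negative counts were 25 and 2, and without macrophage library 4 they were 26 and 2.

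Colonies of both models carried Col1a1, while Col1a2 and Col5a2 were high in SCCVII colonies and Col11a1 and Col4a4 in HPV-negative colonies. Col1a2 was at 244 and 201 TPM in SCCVII colonies and at 1.91, 0.7 and 1.23 TPM in HPV-negative colonies (log2 8.03, SE 0.73, adjusted p = 0.00012), while Col1a1 was at 139 and 93.8 TPM in SCCVII colonies and 114, 144 and 75 TPM in HPV-negative colonies (log2 0.62, SE 0.75, adjusted p = 0.53). Thus the ratio of Col1a1 to Col1a2 TPM was 0.467 and 0.569 in SCCVII colonies and 59.7 to 206 in HPV-negative colonies. Col5a2 was at 29.9 and 15.3 TPM in SCCVII colonies and 1.01 to 1.24 TPM in HPV-negative colonies (log2 4.98, SE 0.47, adjusted p = 0.00014). Col11a1 was at 0 and 0.04 TPM in SCCVII colonies and at 16.4, 40.4 and 22.9 TPM in HPV-negative colonies, and Col4a4 at 0 and 0.04 TPM in SCCVII colonies and 4.69 to 6.83 TPM in HPV-negative colonies. Between the colonies 6 of 34 chains were higher in SCCVII and 7 lower, where 40.4% of all genes were called, 20.5% higher and 19.9% lower. Without SCCVII colony 1 the counts were 3 and 2 of 36, without HPV-negative colony 1 they were 6 and 6, and with only both colony groups in the fit 4 and 11 of 31. As a description over the 44 chains, which are not independent, group mean log2(TPM + 1) of SCCVII colonies had Pearson's r of 0.96 and Spearman's rho of 0.90 with the SCCVII line, and r of 0.19 and rho of 0.68 with SCCVII macrophages. For HPV-negative colonies r was 0.92 and rho 0.91 with the HPV-negative line, and r was 0.58 and rho 0.81 with HPV-negative macrophages. Colonies were also like the lines of other models. HPV-negative colonies had r of 0.80 and rho of 0.86 with the HPV-positive line, and r of 0.72 and rho of 0.73 with the SCCVII line. SCCVII colonies had r of 0.71 and rho of 0.75 with the HPV-negative line, and r of 0.59 and rho of 0.63 with the HPV-positive line.

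Colonies also differed from their line. This comparison was added after the levels had been seen. In HPV-negative MEER 15 of 31 chains were higher and 3 lower in colonies, where 53.2% of 15995 genes were called, 28.1% higher and 25.2% lower. In SCCVII 10 were higher and 3 lower, against 46.9%, 27.1% higher and 19.7% lower. With only both SCCVII groups in the fit, 7 of 25 were higher and 8 lower. Without HPV-negative colony 1 the counts were 16 and 4, and without SCCVII colony 1 they were 7 and 3 of 34. Col6a3 was at 152, 199 and 207 TPM in HPV-negative colonies, against 5.25, 5.4 and 4.36 TPM in the HPV-negative line (log2 4.43, SE 0.31, adjusted p = 2e-05). In SCCVII it was at 97.4 and 42.1 TPM in colonies, against 22.6, 19.4 and 25.5 TPM in the line (log2 1.21, SE 0.30, adjusted p = 0.0082). The TPM ratio of Col6a3 to Col6a1 was 0.76 to 1.17 in HPV-negative colonies, against 0.0561 to 0.107 in the HPV-negative line. Col3a1 was at 69.6, 337 and 51.9 TPM in HPV-negative colonies, against 1.82, 6.78 and 9.35 TPM in the line (log2 4.44, SE 0.88, adjusted p = 0.0025), and at 531 and 149 TPM in SCCVII colonies, against 174 to 189 TPM in the line (log2 1.28, SE 0.84, adjusted p = 0.24, and -0.01 without colony 1). Col4a5 was at 34.1, 58.4 and 40.4 TPM in HPV-negative colonies, against 4.44 to 7.77 TPM in the line (log2 2.62, SE 0.22, adjusted p = 3.4e-05).

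Col24a1, a fibrillar chain best known from developing bone and cornea, was found mainly in colonies. It had 797 and 164 counts in SCCVII colonies and none in SCCVII macrophages or line, at least 534-fold higher than in macrophages and at least 587-fold higher than in the line with a floor of 3 counts over the group. Without SCCVII colony 1 these limits were 146-fold and 160.1-fold. In HPV-negative colonies it had 84, 126 and 57 counts, against 0, 2 and 6 counts in the HPV-negative line (log2 4.89, SE 1.02, adjusted p = 0.0051). Col12a1 was at 14.8 and 5.23 TPM in SCCVII colonies, against 0.66 to 1.16 TPM in the SCCVII line (log2 3.00, SE 0.42, adjusted p = 0.00046). Among the 3 chains lower in SCCVII colonies than in the line were Col5a2 by log2 -2.07 (SE 0.34, adjusted p = 0.001) and Col18a1, at 85.1 and 119 TPM against 304 to 339 TPM in the line, by log2 -1.36 (SE 0.28, adjusted p = 0.0033). In HPV-negative colonies Col18a1 was higher instead, at 303, 281 and 274 TPM against 53.8 to 98 TPM in the line (log2 1.71, SE 0.24, adjusted p = 0.00043). Col4a1 was at 40.6 and 44.8 TPM in SCCVII colonies and 48.4 to 50.3 TPM in HPV-negative colonies. Fibroblast markers summed to 444 and 769 TPM in SCCVII colonies, against 59.4 to 62.7 TPM in the SCCVII line, and to 198, 664 and 458 TPM in HPV-negative colonies, against 40.6 to 45.4 TPM in the HPV-negative line. Dcn was at 97.5 and 406 TPM in SCCVII colonies, against 3.1 to 3.59 TPM in the SCCVII line, and Lum stayed at 1.72 TPM or less in every colony library. Pdgfra was at 65.5 and 188 TPM in SCCVII colonies, against 31.9 to 34.1 TPM in the SCCVII line, and Mfap5 at 37.6 and 33.9 TPM, against 0.07 TPM or less. Dpt was at 68.8 and 58.3 TPM in SCCVII colonies and 36.1 to 68.2 TPM in HPV-negative colonies, against 1.33 TPM or less in every line library. In HPV-negative colonies Dcn was at 2.45, 1.57 and 17.7 TPM and Pdgfra at 2.83, 7.31 and 4.13 TPM. Postn made up most of the sum there, at 105, 514 and 324 TPM. Thy1 and Fap were at 0.36 TPM or less in every colony library. The part of any fibroblasts in the collagen levels was not tested.

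Genes that process collagen were read from 4 lists, of 20 modification and folding genes, 13 processing and cross-linking genes, 11 receptors and 8 collagen-cleaving proteases. In the lines the folding list was mostly higher in SCCVII than in HPV-positive cells, with 13 of 20 higher and 3 lower, beside 30% higher and 34.1% lower of all genes. Serpinh1, the collagen-specific chaperone of the endoplasmic reticulum, was at 1028, 1017 and 1064 TPM in the SCCVII line, at 217, 289 and 264 TPM in the HPV-positive line and at 162, 117 and 94.1 TPM in the HPV-negative line (SCCVII over HPV-negative, log2 3.10, SE 0.19, adjusted p = 4.5e-07). It was at 0.56 to 3.15 TPM in all 9 macrophage libraries, and HPV-negative library 4, with its high collagen, was the lowest of them at 0.56 TPM. In colonies Serpinh1 was at 391 and 523 TPM in SCCVII and at 0.28, 0.06 and 0.06 TPM in HPV-negative MEER (log2 12.04, SE 0.67, adjusted p = 7.6e-06). The same 3 HPV-negative colonies had collagen chains at a summed 1253 to 1912 TPM. The prolyl hydroxylase gene P4ha1 was at 361, 882 and 564 TPM in the same HPV-negative colonies, against 58.6 to 101 TPM in the line (log2 2.86, SE 0.32, adjusted p = 0.00013), and 15 of the 20 folding genes were higher and 2 lower there than in the line, beside 28.1% higher and 25.2% lower of all genes.

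Cross-linking and clearance genes had other patterns. Lox, the lysyl oxidase, was at 11.2 to 13 TPM in the SCCVII line, 0.29 to 0.61 TPM in the HPV-positive line and 14.8 to 24.9 TPM in the HPV-negative line (HPV-positive over HPV-negative, log2 -5.64, SE 0.27, adjusted p = 2.5e-07). Tgm2, a transglutaminase that cross-links matrix proteins, was at 1479, 1489 and 1461 TPM in HPV-positive macrophages, against 289, 313 and 242 TPM in HPV-negative macrophages (log2 2.65, SE 0.12, adjusted p = 6.3e-07), and at 199 to 212 TPM in SCCVII macrophages. Mrc2, the collagen uptake receptor Endo180, was at 126 to 138 TPM in the SCCVII line and 119 and 131 TPM in SCCVII colonies, and at 0.53 TPM or less in the other 18 libraries. Its relative Mrc1 was at 237 to 306 TPM in SCCVII, 189 to 282 TPM in HPV-positive and 466 to 739.9 TPM in HPV-negative macrophages. Lair1, an inhibitory collagen receptor of leukocytes, was at 134 to 246 TPM in the 9 macrophage libraries and at 0.2 TPM or less in the lines.

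Collagen-cleaving proteases also differed between the macrophage models. Of the 8 genes 6 were tested in macrophages, and in SCCVII against HPV-negative all 6 were lower, beside 20.5% lower of all genes. Mmp13, a collagenase, was at 1.44, 1.06 and 1.13 TPM in SCCVII macrophages, at 1076, 1781 and 1154 TPM in HPV-positive macrophages and at 165, 123 and 49 TPM in HPV-negative macrophages. HPV-positive exceeded HPV-negative macrophages for Mmp13 by log2 3.84 (SE 0.43, adjusted p = 8.7e-05), and SCCVII was below HPV-negative by log2 -6.60 (SE 0.53, adjusted p = 1.7e-05). Ctsk, the cathepsin that cuts collagen in bone, had another order, at 36.9 to 52.7 TPM in SCCVII, 1.3 to 4.46 TPM in HPV-positive and 273 to 550.1 TPM in HPV-negative macrophages. In SCCVII colony 1 Ctsk reached 3009.7 TPM, against 119.8 TPM in colony 2.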

How the data were processed

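RNA from 23 libraries was prepared with RNeasy and TruSeq Stranded mRNA kits, per the labels' protocols. The authors deposited expected counts and TPM per gene, per the file headers, in 2 tables, the second holding only the HPV-negative colonies. Per the submitters' processing notes, RSEM 1.3.0 and STAR 2.5.3a were among the tools, beside MultiQC and FastQC, with GRCm38 (mm10) as the build. Strand setting and annotation: not given in the sources used here. Of 36793 gene IDs, 35243 (95.8%) matched a symbol. Deposited TPM gave the levels. Deposited expected counts, 13.1% of them not whole, were rounded and fitted over all genes with edgeR 4.0.16 (R 4.3.3, quasi-likelihood test, TMM, filterByExpr with a minimum count of 10 and a total of 15, prior count 0.125), with Benjamini-Hochberg adjusted p under 0.05 as the call. A TPM ratio can differ from a fitted fold change. Counts are unscaled, so both tables entered the same fits.

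The fits held 9 lines, 9 macrophages, both together (18), or 11 colony and macrophage or line libraries. Named chains were up to 6 called rises and 6 falls per comparison with a mean of at least 5 CPM in the higher group and groups that did not overlap, and 11 chains given always; other chains named, and the genes of the lists beyond their largest changes, were chosen after their values were seen. Members, lists and tests were chosen with earlier results of these data known, and colonies over line was added after seeing the levels. Alternatives were DESeq2 1.42.0, other scalings, filters, fits and replicates left out. The scripts were tested on simulated data. Depth is 26848759 to 47609481 counts per library, and floors cover counting error only.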

Additional observations from a re-analysis of the deposited data

Results flagged for a closer look

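These 16 model differences differed between macrophages and lines by an interaction term in edgeR's quasi-likelihood test over all genes (log2, model difference in macrophages minus that in lines). No group had the 4 libraries needed to look for single outlying values.

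For HPV-positive against HPV-negative MEER the values were 4.53 for Col1a1, 2.39 for Col1a2, 2.27 for Col11a2, -3.73 for Col6a3, -3.40 for Col18a1, -2.85 for Col4a5, -2.72 for Col7a1 and -1.29 for Col15a1. Without HPV-negative macrophage library 4, Col6a3 was at -0.76 (adjusted p = 0.3), Col4a5 at -0.19 (adjusted p = 0.87) and Col7a1 at -0.69 (adjusted p = 0.32), and these 3 were no longer called. In that setting Col18a1 was at -1.98 (adjusted p = 0.00051).

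For SCCVII against HPV-negative MEER the values were 3.18 for Col15a1, -9.50 for Col1a2, -6.45 for Col3a1, -6.20 for Col6a3, -6.11 for Col5a2, -4.35 for Col1a1, -3.76 for Col18a1 and -2.76 for Col5a1. Without library 4, Col5a1 was at -0.15 (adjusted p = 0.78), Col6a3 at -3.18 (adjusted p = 0.00035), Col18a1 at -2.29 (adjusted p = 9.3e-05) and Col1a1 at -2.81 (adjusted p = 0.0011).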

How the results depend on the processing

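Of 3096 values of named chains under alternatives, 2785 kept their direction and side of the threshold, 166 lost a call, 78 gained one and 67 changed sign, 52 of these with neither value called. Of 199 counts, 186 stayed within 1.5 times. Causes were not tested.

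The replicate numbers did not pair the samples. Number 4 belonged only to HPV-negative macrophage library 4, so a replicate block gave that library a term of its own. In the fits that held it, the block thus also took its weight out of the group differences. With the number as a replicate block, 15 chains (13 higher, 2 lower) were called for HPV-positive against HPV-negative macrophages, 20 (6 and 14) for SCCVII against HPV-positive macrophages and 16 (4 and 12) for SCCVII against HPV-negative colonies. Signs turned under the block for HPV-positive against HPV-negative macrophages in Col1a1 (1.12), Col5a1 (1.16), Col6a1 (0.92), Col7a1 (0.30) and Col12a1 (1.20), and for SCCVII against HPV-negative macrophages in Col4a1 (1.01), Col1a2 (0.56), Col5a1 (0.18) and Col18a1 (0.03). They turned in the HPV interaction for Col4a1 (1.25), Col5a1 (2.06), Col4a2 (0.39), Col6a1 (0.81) and Col17a1 (0.74). They turned in the SCCVII interaction for Col4a1 (0.79), Col6a1 (0.22), Col7a1 (0.40) and Col12a1 (0.50), and in SCCVII colonies over line for Col7a1 (-0.04).

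Without TMM scaling, signs turned for Col1a2 in HPV-positive against HPV-negative macrophages (-0.05), Col3a1 in SCCVII against HPV-positive macrophages (0.16), Col12a1 in the HPV interaction (-0.04) and Col5a1 in HPV-negative colonies over line (0.05). With DESeq2 they turned for Col5a1 in that comparison (0.01) and Col4a1 in the HPV interaction (0.02).

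Leaving out 1 library turned further signs. For HPV-positive against HPV-negative macrophages the ranges were -0.68 to 1.28 for Col1a1, -0.08 to 1.05 for Col1a2, -1.83 to 0.20 for Col3a1, -1.98 to 1.13 for Col5a1, -2.37 to 0.95 for Col6a1, -2.17 to 0.37 for Col7a1 and -1.91 to 1.54 for Col12a1. For SCCVII against HPV-negative macrophages they were -1.96 to 0.01 for Col1a1, -0.41 to 0.72 for Col1a2, -1.89 to 0.11 for Col3a1, -0.64 to 0.99 for Col4a1 and -2.96 to 0.16 for Col5a1. In these 12 ranges the highest value was the one without HPV-negative macrophage 4. In the HPV interaction they were -0.43 to 1.16 for Col4a1, -1.28 to 0.27 for Col4a2, -1.11 to 1.96 for Col5a1, -2.54 to 0.74 for Col6a1, -0.18 to 3.23 for Col12a1 and -0.67 to 0.94 for Col17a1. In the SCCVII interaction they were -0.88 to 0.75 for Col4a1, -3.08 to 0.24 for Col6a1, -2.25 to 0.39 for Col7a1 and -3.25 to 0.45 for Col12a1. Elsewhere they were -0.27 to 0.40 for Col6a1 and -0.69 to 0.92 for Col17a1 in HPV-positive against HPV-negative lines, -0.45 to 0.37 for Col3a1 in SCCVII against HPV-positive macrophages, -1.31 to 0.07 for Col1a2 in HPV-negative colonies over macrophages and -0.34 to 0.27 for Col5a1 between colonies. Over their lines they were -0.18 to 0.13 for Col5a1 and -0.07 to 0.56 for Col12a1 in HPV-negative colonies and -0.01 to 1.90 for Col3a1 in SCCVII colonies.

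HPV-positive against HPV-negative lines gave 12 calls with all 23 libraries in the fit. SCCVII against HPV-negative macrophages gave 6 with DESeq2 (4 higher, 2 lower) and 6 with only both groups compared (3 and 3). SCCVII against HPV-positive macrophages gave 20 with only both groups. Leaving out 1 library gave 3 to 17 calls for HPV-positive against HPV-negative macrophages (10 without HPV-negative 2, 17 without HPV-negative 4, 3 without HPV-positive 3). It gave 4 to 15 for SCCVII against HPV-negative macrophages (5, 4 and 4 without SCCVII 1, 2 and 3) and 5 to 12 for SCCVII against HPV-negative colonies (5 without SCCVII colony 1).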

Other observations

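Serpinh1, the collagen chaperone, was singled out after its values were seen. Of 2481 genes above 50 TPM in all 9 line libraries, it was the 1 gene under 1 TPM in all 3 HPV-negative colonies, and 0 such genes were under 1 TPM in both SCCVII colonies. Against their line, HPV-negative colonies were lower by log2 -9.76 (SE 0.49, edgeR adjusted p = 6.2e-06) and SCCVII colonies were at -0.85 (SE 0.35, adjusted p = 0.073). The HPV-negative colonies came in a table of their own, so table and group cannot be told apart.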
